A study of Mus musculus with 8 samples.

Results

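The IL-7 receptor, TSLP receptor and STAT5 axis was taken as 10 genes: the receptor chains Il7r, Il2rg and Crlf2, the kinases Jak1 and Jak3, the transcription factors Stat5a and Stat5b, and the feedback inhibitors Socs1, Socs2 and Cish. Its members were all probe sets whose platform gene symbol is 1 of these names, which gave 19 of 45037 probe sets, for 9 of the 10 genes and of 18193 genes named on the array. No probe set carried the symbol Il2rg in the annotation used here, so the common gamma chain was not analysed here. A further 2 probe sets carry the symbols of both Jak3 and its neighbour Insl3 and were not counted as members. The cells were Fraction B pro-B cells of mouse bone marrow, isolated by sorting for B220+, CD43+, HSA+ and lack of BP-1 in mice of 2 to 3 weeks. Controls were 4 MenF/F mice, which carry floxed Men1 and no Cre, and the menin-deficient group was 4 Rag1-cre;MenF/F mice, with 1 expression array per mouse. Both groups thus share the floxed allele, and Cre, driven from Rag1, a gene of developing lymphocytes, is present in the menin-deficient group alone. An effect of Cre and an effect of menin loss cannot be told apart in this design.

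IL-7 is the main growth factor of mouse pro-B cells. Its receptor joins the alpha chain, encoded by Il7r, with the common gamma chain. The same alpha chain, joined with the chain encoded by Crlf2, forms the receptor for the cytokine TSLP. JAK1 binds the alpha chain and JAK3 the common gamma chain. The activated kinases phosphorylate STAT5A and STAT5B, which pair, enter the nucleus and bind DNA. Socs1, Socs2 and Cish are among the genes STAT5 switches on, and their proteins dampen cytokine receptor signalling.

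STAT5 pairs recognise the palindrome TTCNNNGAA, which reads alike on both strands. It was searched in windows from 250 bases before to 50 bases after the annotated start (RefSeq, GRCm38.p6), and 8.30% of all 32851 such windows held it. Windows were found for 9 of the 10 members. Socs2 had no window and was not searched. Of the 9 genes, 2 held the motif, Cish and Il7r. The Cish window held it 2 times, as 0.457% of all windows did (2 or more times), at positions 1 and 12 counted from the start. Cish rose in menin-deficient cells and Il7r did not pass the test, so the members with the motif did not share a call. The first sequence below is the paired site of Cish (chr9:107296654-107296683, + strand). The second is the 250 bases before the start of Il7r (chr15:9529877-9530126, - strand), with the motif at position -142. Capitals mark the motif. A match is a description of the sequence, and binding was not measured.
Cish: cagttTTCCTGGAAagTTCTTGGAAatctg
Il7r: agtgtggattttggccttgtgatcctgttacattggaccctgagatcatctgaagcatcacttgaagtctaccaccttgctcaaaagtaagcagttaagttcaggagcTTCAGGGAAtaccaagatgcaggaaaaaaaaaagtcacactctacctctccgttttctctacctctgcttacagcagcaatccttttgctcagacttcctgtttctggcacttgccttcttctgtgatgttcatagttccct

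Men1, the targeted gene, was lower in all menin-deficient arrays on its brightest probe set (log2 levels 9.54 ± 0.256 in control and 8.15 ± 0.278 in menin-deficient arrays, SD, n = 4 each). Array medians ran from 3.29 to 3.50 on the log2 scale, and the lowest value of the table was 2.08. Between 41.4% and 41.9% of probe sets lay within 0.05 of it on each array. The sort label was checked against 14 B-lineage and sort markers with a probe set. Their mean log2 level was 13.81 to 14.04 in control and 13.98 to 14.14 in menin-deficient arrays, and no marker of that list was at the lowest value on all arrays. Enpep, which encodes BP-1, the protein whose absence the sort required, is in that list. It read 10.63 to 11.75 in control and 10.44 to 12.17 in menin-deficient arrays, well above the lowest value on every array. The sort was by BP-1 protein and these values are of its transcript, so they cannot show whether the protein was absent. Of the 14 markers, Dntt, Igll1 and Blnk rose by 0.35, 0.38 and 0.39 and Rag1 fell by 0.28 (limma adjusted p = 0.00442, 0.0457, 0.0466 and 0.0326), and the other 10 did not pass. Over all tested genes 16.2% were called higher and 5.17% lower. Dimmer probe sets of Dntt differed by -0.44 and 0.23, and that of Igll1 by -0.12, none past the threshold over all probe sets. The median difference of all 11885 tested genes was 0.11 (log2, menin-deficient minus control), and subtracting from each array the median of its tested genes takes 0.13 off every difference (called centring here).

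The feedback inhibitors Socs2 and Cish, the gamma-chain kinase Jak3 and the STAT5 gene Stat5a rose in menin-deficient cells, and the TSLP receptor chain Crlf2 fell. Socs2 rose 2.60-fold, Jak3 1.87-fold, Cish 1.85-fold and Stat5a 1.74-fold, while Crlf2 fell 1.94-fold (limma, adjusted over all genes). Of 8 member genes with a probe set above the filter on dim values, 4 rose, 1 fell and 3 did not pass. Over all genes tested, 21.3% were called, 16.2% higher and 5.17% lower (1922 and 614 genes, which became 911 and 971 after centring). The 5 called members were also those whose groups did not overlap, against 26.3% of all tested genes. The median difference of the 8 genes was 0.49, against 0.11 for all tested genes. After centring on the median tested gene, the same count of 4 higher and 1 lower was called. These are arrays of whole sorted populations, so a lower level can mean fewer cells of a type or less RNA per cell, and the values do not separate these.

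**Figure D1:**
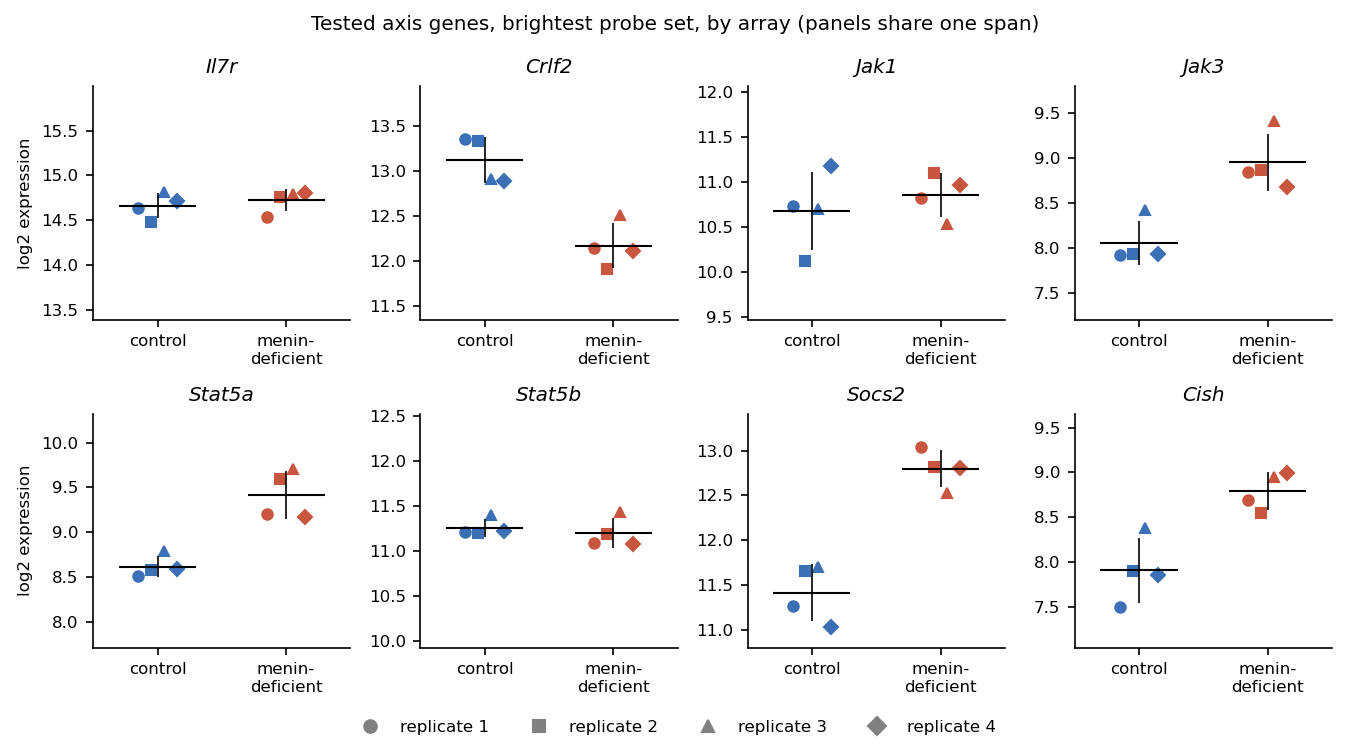
Log2 expression (vertical axes) of the 8 tested axis genes on their brightest probe sets, with a marker for each replicate, the mean as a horizontal line and the SD as a vertical line (n = 4 each). The groups do not overlap for Crlf2, Jak3, Stat5a, Socs2 and Cish, and overlap for Il7r, Jak1 and Stat5b.

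The receptor chains behaved unequally. Il7r had log2 levels of 14.64, 14.48, 14.82 and 14.72 in the controls, given in the order of replicates 1 to 4 here and throughout, and 14.54, 14.77, 14.80 and 14.81 in the menin-deficient arrays. The menin-deficient range lay within that of the controls. The difference was 0.06 (SE 0.092, 95% interval -0.15 to 0.28, limma adjusted p = 0.663), an interval that leaves room for a change of either sign. Its other probe set read 12.84, 13.19, 12.85 and 13.13 in control and 13.66, 13.20, 13.52 and 13.18 in menin-deficient arrays. Menin-deficient replicates 1 and 3 lay well above all controls there, and replicates 2 and 4 lay level with the higher controls. That probe set differed by 0.39 and did not pass on its own (limma adjusted p = 0.116 over all probe sets). With the mean of both probe sets Il7r was called higher (0.23, limma adjusted p = 0.0398), and after centring on the median tested gene its brightest probe set differed by -0.06.

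Crlf2, which encodes the chain that binds TSLP, is represented by 1 probe set. Its log2 levels were 13.36, 13.33, 12.92 and 12.89 in control and 12.15, 11.91, 12.51 and 12.11 in menin-deficient arrays. The highest menin-deficient array, replicate 3, lay below the lowest control. The difference was -0.95 (SE 0.17, 95% interval -1.35 to -0.56, limma adjusted p = 0.0100), and it was -1.08 after centring. Crlf2 and Il7r were compared within each array, as were 3 other pairs of members chosen after their values were seen. The change of Crlf2 was lower than that of Il7r by -1.02 (log2), with groups that did not overlap. The two-sided exact permutation p of 0.0286 is the smallest that 4 against 4 arrays can give, and it is 0.0571 adjusted over the 4 pairs. Neither p-value allows for the choice of the pairs.

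Of the receptor kinases, JAK3 signals from the common gamma chain. Jak3 had log2 levels of 7.91, 7.93, 8.42 and 7.93 in control and 8.84, 8.86, 9.41 and 8.68 in menin-deficient arrays. All menin-deficient arrays were above all controls, and replicate 3 was the highest of both groups. The difference was 0.90 (SE 0.19, limma adjusted p = 0.0171). Without control replicate 1 the value was 0.86 and the call was lost (adjusted p = 0.0503). A probe set that carries the symbols of both Jak3 and Insl3 differed by 1.01 (limma adjusted p = 0.0649 over all probe sets), with overlapping groups, and the other such probe set was at the lowest value on every array.

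Jak1 encodes the kinase bound to the alpha chain and has 3 probe sets. The brightest read 10.73, 10.12, 10.70 and 11.18 in control and 10.82, 11.11, 10.53 and 10.96 in menin-deficient arrays (log2). The groups overlapped throughout. Its difference was 0.17 (SE 0.23, 95% interval -0.37 to 0.72, limma adjusted p = 0.628). The next probe set gave 0.26 and the dimmest -0.72, neither past the threshold over all probe sets (limma adjusted p = 0.142 and 0.408). The dimmest one ranged widely within groups, with 9.88, 8.80, 7.997 and 9.46 in control and 7.64, 8.95, 7.62 and 9.05 in menin-deficient arrays. The 3 probe sets thus give differences of both signs. The changes of Jak3 and Jak1 differed by 0.73 within arrays, with overlapping groups (exact permutation p = 0.143, also 0.143 adjusted over the 4 pairs).

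The STAT5 genes lie next to each other and encode closely related proteins. Whether their probe sets match transcripts of both was not tested. Stat5a had log2 levels of 8.52, 8.58, 8.79 and 8.60 in control and 9.21, 9.59, 9.71 and 9.17 in menin-deficient arrays. Every menin-deficient array was above every control. The difference was 0.80 (SE 0.14, limma adjusted p = 0.00964) and 0.67 after centring. A further Stat5a probe set lay at 2.08 to 2.10 on all arrays, at the floor of the table, and did not pass the filter.

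Stat5b read 11.21, 11.19, 11.40 and 11.22 in control and 11.08, 11.19, 11.43 and 11.08 in menin-deficient arrays. The groups overlapped, with replicate 3 the highest of each. The difference was -0.06 (SE 0.092, 95% interval -0.27 to 0.16, limma adjusted p = 0.693). Its dim probe set read 5.17 to 5.98 in control and 5.14 to 5.19 in menin-deficient arrays and did not pass either (-0.30, limma adjusted p = 0.286 over all probe sets). Within arrays the change of Stat5a exceeded that of Stat5b by 0.86, with groups that did not overlap. The exact permutation p was 0.0286, the smallest possible, and 0.0571 adjusted over the 4 pairs. This pair too was chosen after its values were seen, and neither p-value allows for that choice.

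Socs2, whose protein is best known as a brake on growth hormone and STAT5 signalling, has 6 probe sets. The brightest read 11.28, 11.66, 11.70 and 11.04 in control and 13.04, 12.81, 12.53 and 12.81 in menin-deficient arrays. The lowest menin-deficient array was above the highest control. The difference was 1.38 (SE 0.18, limma adjusted p = 0.00397) and 1.25 after centring.

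Of the other Socs2 probe sets, 2 were also called higher. One read 8.47, 8.72, 9.21 and 8.43 in control and 10.40, 10.04, 9.45 and 9.85 in menin-deficient arrays, a difference of 1.23 (limma adjusted p = 0.0215 over all probe sets). Another went from 4.52 to 5.28 in control to 5.84 to 7.09 in menin-deficient arrays, a difference of 1.52 (limma adjusted p = 0.0170 over all probe sets). The groups were apart on both. A further one, with 6.39 to 7.84 in control and 7.58 to 8.45 in menin-deficient arrays, overlapped and did not pass (0.80, limma adjusted p = 0.209). The fifth was at the lowest value in all controls and read 4.03, 2.28, 2.37 and 2.45 in menin-deficient arrays. It passed the filter through the menin-deficient arrays alone, so it could differ in that direction only, and it was not past the threshold (0.71, limma adjusted p = 0.271 over all probe sets). The sixth stayed at 2.08 to 2.09. Menin-deficient replicate 1 was the highest of its group on all 5 probe sets that passed the filter. Control replicate 3 was the highest control on each of the 4 with a spread among controls.

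**Figure D2:**
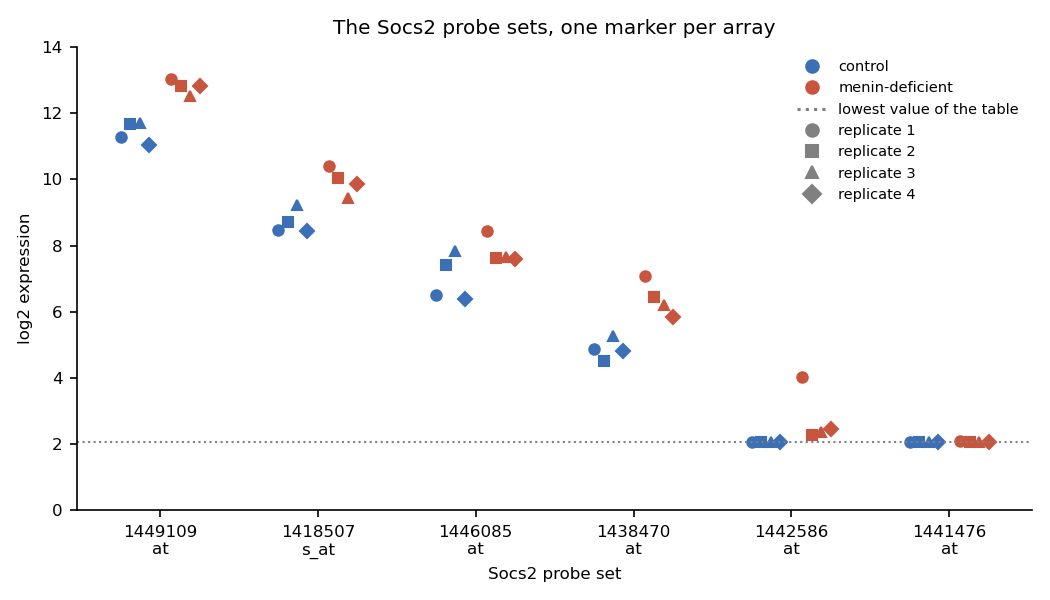
Log2 expression (vertical axis) of the 6 Socs2 probe sets (horizontal axis) on each array, control in blue and menin-deficient in red, with the lowest value of the table (2.08) dotted. On 3 probe sets the menin-deficient arrays lie apart above the controls with all arrays off the lowest value, on 1 the groups overlap, and on 2 the controls sit at the lowest value.

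Cish encodes an SH2-domain protein related to the SOCS proteins, and its start carries the paired motif printed above. It read 7.50, 7.90, 8.39 and 7.86 in control and 8.70, 8.55, 8.95 and 8.99 in menin-deficient arrays. The groups did not overlap, and control replicate 3 came closest to the menin-deficient arrays. The difference was 0.88 (SE 0.19, limma adjusted p = 0.0206). The call was lost on leaving out control replicate 4 (0.87, limma adjusted p = 0.0533), menin-deficient replicate 3 (0.83, limma adjusted p = 0.0510) or menin-deficient replicate 4 (0.82, limma adjusted p = 0.0545). Socs2 and Cish changed by amounts that differed by 0.50 within arrays, with overlapping groups (exact permutation p = 0.114, adjusted over the 4 pairs 0.143). Socs1, an inhibitor of JAK kinases, was at 2.08, the lowest value, on all 8 arrays, so its probe set gave no comparison.

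Tested probe set by probe set, 7 of the 16 members that passed the filter were called, 6 higher and 1 lower, against 14.2% of all 26790 kept probe sets (9.34% higher and 4.87% lower). The other 3 of the 19 lay within 0.05 of the lowest value on every array. The count of 7 was 4 on leaving out control replicate 1 or control replicate 4, and 3 on leaving out menin-deficient replicate 2. In the gene-level fit, the calls of Socs2, Stat5a and Crlf2 held on leaving out each array in turn.

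**Figure D3:**
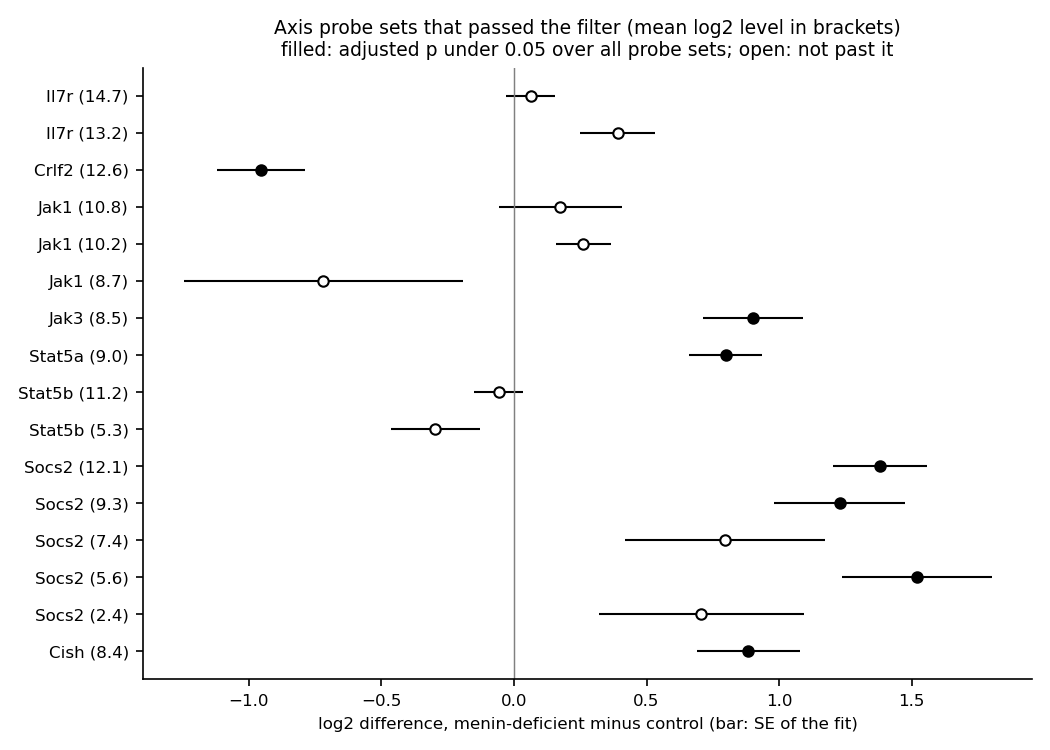
Log2 difference, menin-deficient minus control (horizontal axis, bar SE), of the 16 axis probe sets that passed the filter, with the mean log2 level in brackets. The 3 called Socs2 probe sets lie at 1.23, 1.38 and 1.52, the one with all controls at the lowest value could lie right of 0 only, Crlf2 lies at -0.95, and the probe sets of Jak1 lie on both sides of 0.

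The sexes were mixed among the arrays. Control replicate 3, the only male control by Eif2s3y, was the highest control for Socs2, Cish, Jak3 and Stat5a. Menin-deficient replicates 1 and 2 were male. With sex as a covariate all 5 gene-level calls stayed past the threshold, with Cish at 0.87 (limma adjusted p = 0.0403) and Jak3 at 0.88 (limma adjusted p = 0.0343).

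Some markers of other blood cells differed between the groups, and most markers of each list but the T cell one did not pass. The counts below stand against 16.2% called higher and 5.17% called lower over all tested genes. Of 7 tested T cell markers 6 were higher, and the mean of the 12 on the array was 4.09 to 4.26 in control and 4.85 to 4.99 in menin-deficient arrays (log2). Of these, Cd3e, Cd8b1 and Trat1 were at the lowest value on every array, and Cd3d did not exceed 2.18. Of 9 NK cell markers 3 were higher, with means of 5.74 to 6.12 in control and 6.34 to 7.19 in menin-deficient arrays, the highest in replicate 3. The basophil, mast cell and eosinophil list ran from 6.78 to 7.38 in control and from 7.25 to 8.13 in menin-deficient arrays, with overlapping groups, and 2 of 7 tested were higher. Of 9 plasmacytoid dendritic cell markers 2 were higher (6.27 to 6.61 against 6.93 to 7.21), and of 8 monocyte, macrophage and dendritic markers 2 were (5.83 to 6.22 against 5.70 to 6.998, overlapping). Of 5 plasma cell markers 2 were lower (9.79 to 10.47 against 9.41 to 9.69).

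Without menin-deficient replicate 3, Socs2, Stat5a, Jak3 and Crlf2 differed by 1.47, 0.70, 0.75 and -1.07, all past the threshold, while Cish differed by 0.83 and was not past it. The T cell, NK cell and plasmacytoid dendritic cell means were higher on every menin-deficient array than on every control. Leaving out 1 array therefore does not remove these differences. The part of other cells in the member results was not tested.

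**Figure D4:**
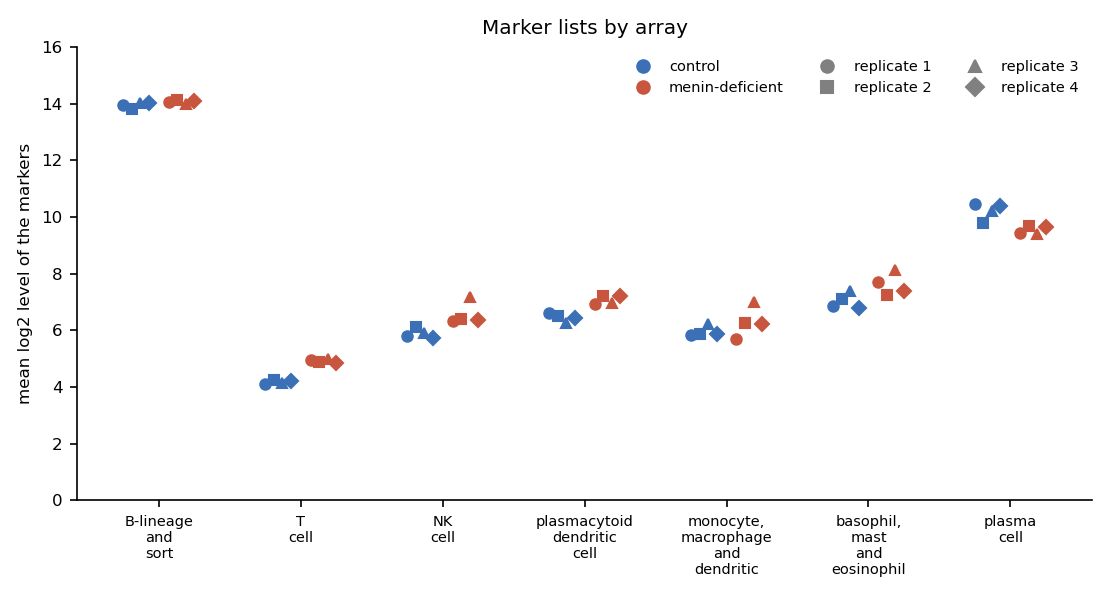
Mean log2 level (vertical axis) of the markers of each cell type (horizontal axis) on each array, control in blue and menin-deficient in red. The B-lineage list lies near 14 on all arrays. The T cell list is higher on all menin-deficient arrays (4.85 to 4.99) than on all controls (4.09 to 4.26). So is the NK cell list (6.34 to 7.19 against 5.74 to 6.12), with menin-deficient replicate 3 the highest.

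Around the members, 6 lists of pathway genes held 87 genes, of which 75 were tested, 8 rose and 7 fell, with a median difference of 0.08 against 0.11 for all tested genes. The 15 called of 75 are a share close to the 21.3% of all tested genes. After centring on the median tested gene 5 were higher and 9 lower. Without menin-deficient replicate 2 the counts were 4 higher and 5 lower.

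Among 13 tested cytokine receptor chains, 2 rose and 1 fell, and the median difference was 0.24 (over all tested genes 16.2% were called higher and 5.17% lower, with a median of 0.11). Csf2rb2, a beta chain of the mouse IL-3 receptor that is close in sequence to Csf2rb, read 6.96, 7.21, 7.77 and 6.80 in control and 8.59, 8.48, 8.81 and 8.66 in menin-deficient arrays, a 2.73-fold rise (limma adjusted p = 0.00555). Its groups were well apart. Il15ra, the alpha chain for IL-15, rose by 1.13, and a dimmer probe set gave 0.27 and did not pass. Il2ra, the IL-2 receptor alpha chain and a known STAT5 target in T cells, fell by 0.87 (9.05 to 9.98 in control and 8.54 to 8.71 in menin-deficient arrays, limma adjusted p = 0.0206). The call for Il2ra was lost on leaving out either control replicate 4 or menin-deficient replicate 2, and with the mean of its probe sets. Its dimmer probe set differed by -0.46 and did not pass (limma adjusted p = 0.395 over all probe sets). Flt3 and Kit, growth factor receptors of early progenitors, differed by 0.66 and 0.28, not past the threshold.

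Of the ligands, 2 of 8 genes with a probe set were tested. Il15 rose by 0.76 (limma adjusted p = 0.0376), a call lost on leaving out any 1 of the controls, menin-deficient replicate 2 or menin-deficient replicate 4. Kitl, the ligand of Kit, lay near the lowest value in the controls (mean 2.12) and differed by 0.35, not past the threshold. The probe sets of Il7 and Tslp did not pass the filter.

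In the other JAK and STAT genes, 1 of 6 tested rose and 0 fell, with a median difference of 0.22. The shares of all tested genes were 16.2% higher and 5.17% lower, with a median of 0.11. Stat4, the transducer of IL-12 signals, read 11.11, 11.02, 11.15 and 11.30 in control and 11.96, 12.25, 12.06 and 11.90 in menin-deficient arrays. The arrays of each group lay close together and the groups were far apart. The difference was 0.90 (SE 0.092, limma adjusted p = 0.00221). Stat2 differed by 0.45 (limma adjusted p = 0.136), Stat3 by 0.18, Stat6 by -0.08, Tyk2 by 0.26 and Jak2 by -0.01 on their brightest probe sets, none past the threshold.

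Of 18 other SOCS genes and negative regulators, 2 rose and 2 fell, with a median difference of 0.01. Of all tested genes 21.3% were called, 16.2% higher and 5.17% lower, with a median of 0.11. Socs7 fell 1.98-fold (12.96 to 13.26 in control and 11.75 to 12.50 in menin-deficient arrays, limma adjusted p = 0.00976), and its dimmer probe set gave -0.54, not past the threshold. Cblb, a ubiquitin ligase that restrains receptor signalling, fell by 0.71, while 2 dimmer probe sets gave -0.15 and -0.05. Sh2b3, the adaptor LNK that restrains cytokine receptors, rose by 0.51, and Dok2, a docking protein, by 0.50. The call for Dok2 was lost after centring and without menin-deficient replicate 2, and those for Cblb and Sh2b3 with the mean of each gene's probe sets. Socs3, whose promoter window holds 1 STAT motif, differed by 0.0011 on its brightest probe set.

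Of 17 known STAT5 targets and downstream genes, 2 rose and 3 fell, with a median difference of -0.17. Over all tested genes 16.2% were higher and 5.17% lower, with a median of 0.11. The list leaves out the members, Socs2 and Cish among them. It also holds genes that STAT5 represses, such as Bcl6, so its median does not measure STAT5 output. Pim3, a survival kinase, fell by 1.27 on an _x_at probe set (a design open to cross-matching between transcripts), against 0.49 on the plain one. Bcl2l1, which encodes the survival protein BCL-XL, fell by 0.42, against a difference of 0.50 on a dimmer probe set. Cdkn1b, a CDK inhibitor, fell by 0.63, against 0.06 on a dimmer probe set, and its call was lost without menin-deficient replicate 2 (limma adjusted p = 0.0527) and with the mean of its probe sets (0.0523). The probe sets of each of these 3 genes differed in size or sign. Ccnd2, the D-type cyclin of growth factor response, and Osm, a cytokine gene induced by STAT5, rose by 0.60 and 0.57 (limma adjusted p = 0.0457 and 0.0463), calls that were lost in 15 and 16 of 21 alternatives, centring among them. The other Ccnd2 probe sets differed by -0.44 to 0.49, of both signs and none past the threshold over all probe sets. Mycn, a growth regulator, differed by 0.99 with groups that did not overlap and was not past the threshold (limma adjusted p = 0.0644). On their brightest probe sets Ccnd3, Id2 and Ebf1 differed by 0.22, 0.19 and 0.06. Gfi1, Bhlhe40 and Bcl2 differed there by -0.14, -0.26 and -0.18, and none of these genes was past the threshold. A dimmer Ebf1 probe set was lower, with groups that did not overlap (-0.75, limma adjusted p = 0.0162 over all probe sets). Its others differed by 0.23, 0.22 and -0.04. A dimmer Bcl2 probe set was lower likewise (-0.50, limma adjusted p = 0.0120), and its others differed by 0.32, -0.05 and -0.23. Pim1, Pim2, Mcl1, Myc and Bcl6 differed by -0.17, -0.36, -0.32, -0.06 and -0.39, none past the threshold.

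In the PI3K, AKT and FOXO arm, which IL-7 also engages, 0 of 19 tested genes rose and 1 fell, with a median difference of 0.14. Among all tested genes 16.2% were called higher and 5.17% lower, and the median was 0.11. Pik3r1, a regulatory subunit of PI3K, fell by 0.22 (limma adjusted p = 0.0436), and with the mean of its probe sets it differed by 0.02. That call was lost in 14 of 21 alternatives, among them leaving out any 1 control or menin-deficient replicate 1, 3 or 4. Pik3ip1, an inhibitor of PI3K, the kinase gene Akt1 and Tsc2, a brake on mTOR, differed by 0.36, 0.34 and 0.85, not past the threshold (limma adjusted p = 0.0933, 0.115 and 0.125). Dimmer probe sets of Pik3ip1 and Akt1 were higher by 0.62 and 0.40 (limma adjusted p = 0.0328 and 0.0475 over all probe sets), and the dimmest of Akt1 differed by -0.52. Foxo1, the factor that drives Il7r and Rag gene expression, differed by -0.05 on its brightest probe set, with overlapping groups. Its other probe sets differed by 0.46 and 0.33, each with groups that did not overlap and neither past the threshold (limma adjusted p = 0.0646 and 0.148 over all probe sets).

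**Figure D5:**
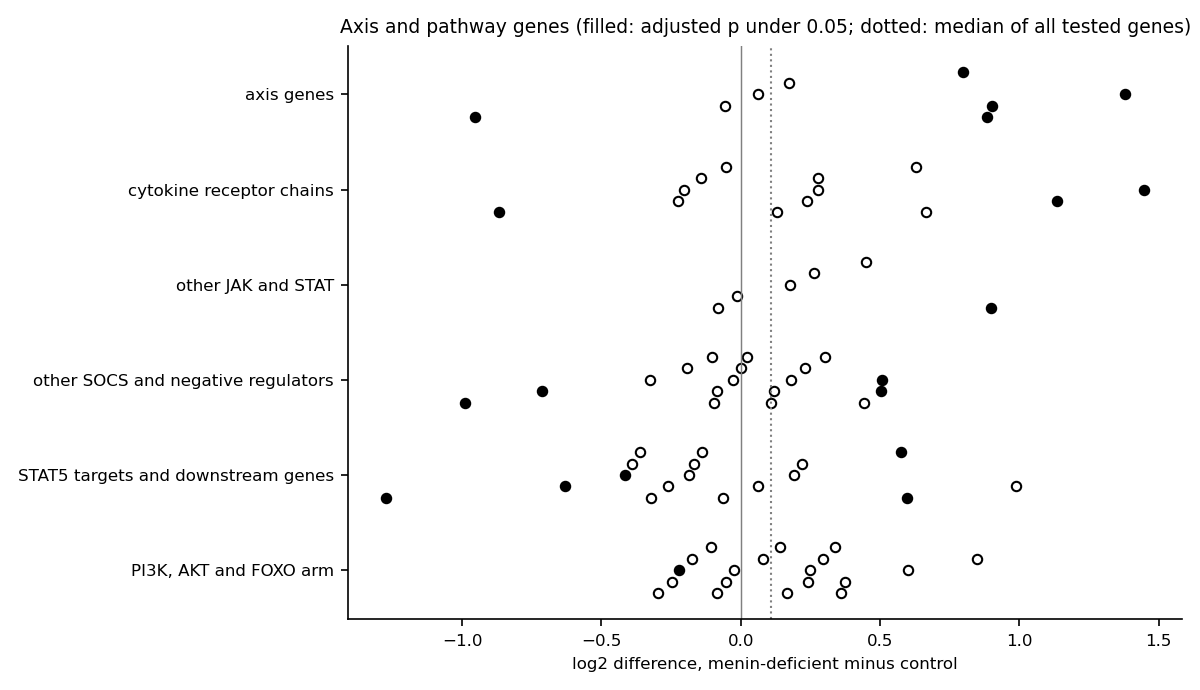
Log2 difference, menin-deficient minus control (horizontal axis), of each tested axis and pathway gene by list, filled where the limma adjusted p is under 0.05, with the median of all tested genes (0.11) dotted. Among axis genes 5 of 8 points are filled, and in the PI3K list 1 of 19, against 21.3% of all tested genes.

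Genes whose values followed those of a called member most closely were found by the root mean square difference of profiles over the 8 arrays (log2 values minus the mean of each gene), a description in which the group difference weighs most. Nearest to Socs2 were Ncr1, Fam135a and Arhgap26, with 0.16, 0.19 and 0.20. Ncr1 encodes an NK cell receptor and was dim, with mean log2 levels of 3.20 in control and 4.62 in menin-deficient arrays. Those of Socs2 were 11.42 and 12.80. Of the 9 NK cell markers tested, 6 were not called, and a link between Socs2 and NK cells was not tested. For Stat5a the nearest genes were Mta3, Parp12 and Hacl1 (0.083, 0.087 and 0.094), and for Jak3 Adgrg1, Zfp467 and Impdh1 (0.11, 0.13 and 0.14). For Crlf2 they were Yipf2, Cotl1 and Map1lc3a (0.096, 0.11 and 0.13), all on _s_at or _x_at probe sets.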

How the data were processed

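The authors deposited 1 table of log2 values for 8 arrays (Affymetrix Mouse Genome 430 2.0, per the series' design text). The scale was judged from the range (2.08 to 17.35). Per the submitters' processing notes MAS5 and GCRMA were used, without saying which gave the deposited values. The floor they leave compresses low values.

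Probe sets were named by the platform annotation, and control probe sets (64) were left out. A probe set was tested (26790 in all) if 4 or more of the 8 arrays had it above their own 40th percentile, and each of 11885 genes was read from its brightest tested probe set. Groups were compared with limma 3.58.1 under R 4.3.3 (lmFit, eBayes, no covariates), once by gene and once by probe set, at a Benjamini-Hochberg adjusted p under 0.05. The fit was tested on simulated data. The number of arrays limits the precision.

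Members and lists were chosen with earlier results of these data known. The rule for names took all members, and pathway genes past the threshold or among the 4 with the lowest p of their list, besides a few named by role after their values were seen. The within-array comparisons of members were added after seeing the data. Alternatives were other scalings, filters, probe set rules, variance settings, array weights, a replicate block, sex as a covariate and leaving out each array. Plots were drawn with matplotlib 3.10.9.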

Additional observations from a re-analysis of the deposited data

Results flagged for a closer look

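In 13 of 70 groups examined, 1 array lay far from the remaining 3 (35 items, both groups of each), where chance gives about 1 in 20. Control replicate 3 was apart for Jak3 (8.42 against 7.91 to 7.93 in the other controls) and for the bright Stat5b probe set (11.40 against 11.19 to 11.22). Menin-deficient replicate 1 was apart for 2 Socs2 probe sets (4.03 against 2.28 to 2.45, and 8.45 against 7.58 to 7.65), for the brightest Il7r probe set (14.54 against 14.77 to 14.81) and for Bcl2l1 (10.33 against 10.48 to 10.49). Menin-deficient replicate 4 was apart for Dok2 (5.96 against 6.27 to 6.30) and for the dim Stat5b probe set (5.14 against 5.19). Control replicate 2 was apart for Ccnd2 (13.18 against 12.57 to 12.59) and Pim3 (13.25 against 12.92 to 12.96). The remaining 3 lay at the lowest value, where tiny gaps count: Socs2 on its dimmest probe set (2.086 in menin-deficient replicate 1), the dim Stat5a probe set (2.102 in control replicate 4) and Socs1 (2.079 in menin-deficient replicate 2).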

How the results depend on the processing

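The 5 member genes called remained 4 to 6 under the 20 alternatives to that count. Of changed genes, 2536 became 1673 with no filter and 1328 with the replicate number as a block, and 1416 to 2265 without each array in turn. Of changed probe sets, 3808 became 1935 with no filter and 1083 with the replicate block, and 1796 to 3375 without each array. Of member probe sets called, 7 became 4 with no filter and 2 with the replicate block, and 3 to 7 without each array. Of other pathway genes, 15 became 9 to 16 without each array. Under the replicate block 4 member genes were called, and Crlf2 was not (adjusted p = 0.0571). Same-numbered arrays deviated from their group means with correlations of -0.11, -0.31, -0.17 and 0.05, and 0 of 4 correlated best with their own number. No pairing of mice by number was thus seen, but so few values cannot exclude one. Values that turned sign were those of Il7r after centring on all probe sets (-0.0084) or tested genes (-0.062), Jak1 without control replicate 2 (-0.013, in a range up to 0.34 without control replicate 4) and with the mean of its probe sets (-0.094), Bcl2l1 (0.044) and Pik3r1 (0.016) with that mean, and Pim3 without _x_at and _s_at probe sets (0.49). Over the 21 genes called, the other alternatives kept the call in 363 cases and lost it in 73. Over Il7r, Jak1 and Stat5b, which were not called, they left it so in 58 and made a call in 1. The causes were not tested. Probe sets near the lowest value, such as that of Socs1, limit what can be seen.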

Other observations

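Other probe sets of pathway genes, which do not stand for their gene above, passed the threshold in the fit of every probe set on its own. A dimmer probe set of Jak2, the kinase of the IL-3 and TSLP receptors, was higher (0.60, limma adjusted p = 0.0112), while the brightest differed by -0.01. Csf2rb, the shared beta chain of the IL-3, IL-5 and GM-CSF receptors, was higher on its dimmer probe set (1.07, limma adjusted p = 0.0155) and differed by 0.63 on the brighter (limma adjusted p = 0.0654). A probe set of Id2, an inhibitor of E proteins, was higher by 1.24 (limma adjusted p = 0.0310), while its 2 others differed by 0.19 and 0.28. For Mcl1, a survival gene, 2 _x_at probe sets were lower (-0.39 and -0.59, limma adjusted p = 0.0333 and 0.0167), and its 3 plain probe sets differed by 0.01, -0.03 and -0.04. For Pik3ca, 2 dimmer probe sets were lower (-0.68 and -0.61, limma adjusted p = 0.0330 and 0.0464), while the brightest differed by 0.25. The others of Pik3ca differed by -0.30, -0.12 and -0.12, not past the threshold. A dimmer Pik3cd probe set was higher (0.59, limma adjusted p = 0.0285), against -0.30 on the brightest. The others of Pik3cd differed by 0.32, 0.02 and 0.16, not past the threshold. A dimmer Pias1 probe set was lower (-0.34, limma adjusted p = 0.0492), against 0.18 on the brightest. Its others differed by -0.33 and -0.57, not past the threshold (limma adjusted p = 0.180 and 0.0836).

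The motif TTCNNNGAA was also found in the windows of Bcl6, a STAT5-repressed gene, which has 2 annotated starts in the table: 1 match at position -118 of the first and 3 matches at -168, -122 and -88 of the second. Bcl6 differed by -0.39 on its brightest probe set, not past the threshold (limma adjusted p = 0.369 over all probe sets), and the other read 3.01 on every array.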
